A study of Mus musculus with 24 samples.

Results

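The genes of long-chain fatty acid oxidation were followed in mouse samples labelled as peritoneum, the lining of the abdominal cavity. The set holds 33 genes, chosen by name for their place in the pathway, of 56422 gene names in the deposited table. All 33 were in the table, and all 33 were among the 15163 genes tested, which had a TPM (a length-corrected share of the transcripts of a library) of at least 1 in at least 6 libraries. The samples were 24, with 6 in each of 4 groups: propionate, butyrate, propionate and butyrate together (the combination group), and a control group whose treatment label reads none. Both acids are short-chain products of gut bacteria. The series title places the samples in work on mannose, anti-PD-1 therapy and ovarian cancer, but the sample labels give no dose, duration, mouse strain, age, tumour line or anti-PD-1 treatment, and name the tissue only as peritoneum. Whether the 6 replicates of a group came from separate animals is not in the labels, and the p-values can then speak only for the spread among these libraries, part of which may be technical.

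Long-chain fatty acids are first joined to coenzyme A by acyl-CoA synthetases and then carried into mitochondria as carnitine esters, a step that carnitine palmitoyltransferase 1 controls. Inside, each turn of the β-oxidation spiral dehydrogenates, hydrates, dehydrogenates again and cleaves the chain, giving acetyl-CoA for the tricarboxylic acid cycle and electrons for the respiratory chain. Peroxisomes run a related spiral on chains too long for mitochondria. The pathway is most active in heart, oxidative skeletal muscle, liver and brown fat, and nuclear receptors of the PPAR family with the coactivator PGC-1α raise many of its genes.

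The tissue itself differed from library to library. Summed TPM of 15 fast skeletal muscle genes ran between 31550 and 161800 with propionate, 80380 and 125400 with butyrate, 68.36 and 136200 in the combination group and 31620 and 126400 in control. Combination replicate 5 stood apart with those 68.36 TPM of muscle genes, 11780 TPM of adipocyte genes and 1276 TPM of lymphoid genes, against 466.2 to 3568 TPM and 2.84 to 47.67 TPM of these lists in the other 23 libraries. Wt1, a mesothelial gene, was at 0 in 1 library and reached 367.81 TPM elsewhere. Of 10 epithelial and ovarian carcinoma genes, Krt8 ran between 0.3 and 292.3 TPM (median 35.52) and Krt18 between 0.39 and 208.9 TPM (median 40.33). Epcam was at 0 in 5 libraries and Pax8 did not exceed 0.78 TPM. The 10 summed to 4.14 to 453.1 TPM with propionate and 1.56 to 211 TPM with butyrate. In the combination group they summed to 6.41 to 505.1 TPM and in control to 2.02 to 538.5 TPM. These markers thus ranged widely within each group. The sequencing depth is unknown, since TPM does not carry it. In bulk tissue, fewer cells of a type and less RNA per cell cannot be told apart.

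The 33 genes covered a wide range of levels. By the median over 24 libraries, Fabp3, which binds fatty acids in the cytosol of muscle, was the most abundant at 385 TPM. It was followed by Etfb at 334 TPM, Hadhb at 174 TPM and Etfa at 156 TPM. At the low end stood the peroxisomal genes Ehhadh at 3.48 TPM and Acaa1b at 1.30 TPM and, between them, the receptor gene Ppara at 2.10 TPM. The summed TPM of all 33 averaged 3298 ± 972 with propionate, 2927 ± 298 with butyrate, 2945 ± 397 in the combination group and 2898 ± 659 in control (SD, n = 6 each). Some genes were steadier than others over the libraries of the 4 groups pooled. Leaving combination replicate 5 aside, 11 of the 33 ranged over no more than 2-fold across the other 23 libraries, and 10 ranged over more than 5-fold.

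**Figure D1:**
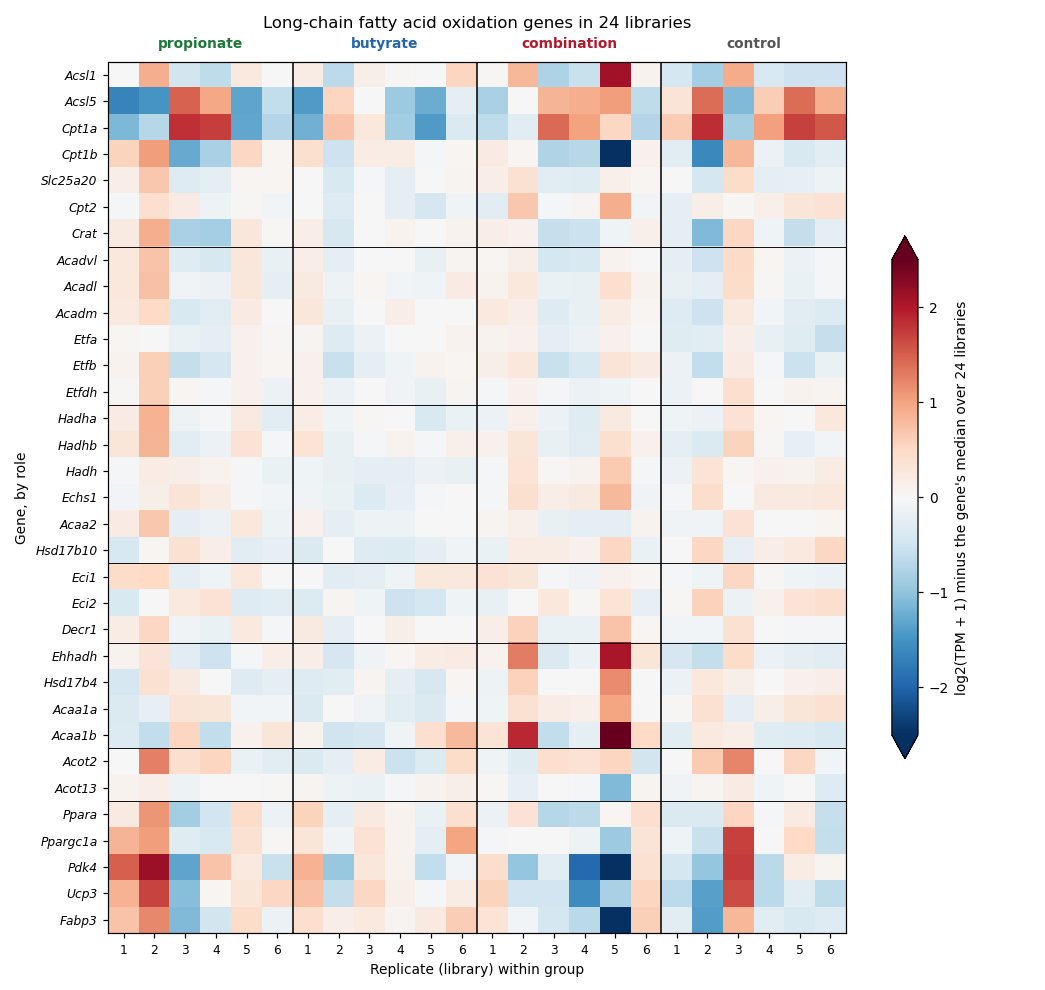
Level of each of the 33 genes (rows, grouped by role) in each of the 24 libraries (columns, grouped by treatment with control at the right), as log2(TPM + 1) minus the gene's median over all libraries, with the colour scale ending at 2.5 in either direction. Combination replicate 5 differs from every other column, with Fabp3 (0.47 TPM) and Cpt1b (2.28 TPM) at their lowest and Acsl1 (375 TPM) and Ehhadh (17.4 TPM) at their highest.

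Combination replicate 5 held the extreme value of the whole series for 14 of the 33 genes. It lay above all 23 other libraries for 9 of them, including Acsl1, Ehhadh, Acaa1b, Echs1, Hsd17b4 at 89.7 TPM, Acaa1a at 74.1 TPM and Cpt2 at 44.8 TPM. For 5 it lay below all others, namely Fabp3, Cpt1b, Acot13 at 49.75 TPM, Pdk4 at 19.8 TPM and Ppargc1a at 1.51 TPM, and for the remaining 19 it lay inside their range. Control replicate 3 and propionate replicate 2 had the most fast muscle RNA of their groups, at 126400 and 161800 TPM. Combination replicate 6, at 136200 TPM, and propionate replicates 1 and 5, at 129900 and 127600 TPM, lay above that control library. Control replicate 3 and propionate replicate 2 held 116 and 134 TPM of Cpt1b and 683 and 883 TPM of Fabp3. For Acsl1 (167 and 165 TPM) and Ehhadh (5.12 and 4.60 TPM) they were the highest of their groups, as combination replicate 5 was of its own.

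No gene of the set passed in any treated group against control. In limma with Benjamini-Hochberg adjustment over all 15163 genes, 0 of 33 had an adjusted p under 0.05 with propionate, with butyrate or in the combination group, where the share of all genes passing was 0%, 0% and 0%. At an unadjusted p under 0.05, propionate gave 0 genes of the set higher and 0 lower, beside 0.435% and 9.13% of all genes tested. Butyrate gave 0 higher and 6 lower (18.2% of the set), beside 1.19% and 35.1% of all genes, so the set was below the background there. The combination gave 2 higher and 0 lower, beside 6.2% and 4.1%, and without combination replicate 5 it gave 0 and 0, beside 4.2% and 4.52%. Leaving out combination replicate 2 also gave 0 higher, and leaving out control replicate 3 gave 5. The 6 lower with butyrate became 2 without control replicate 2, and the 0 lower with propionate became 4 without control replicate 3 or propionate replicate 3 and 3 without propionate replicate 4. For 0 of the 33 did the 6 treated libraries and the 6 control libraries not overlap, in each of the 3 comparisons, beside 0.0396%, 1.89% and 0.745% of all genes with propionate, butyrate and the combination.

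**Figure D2:**
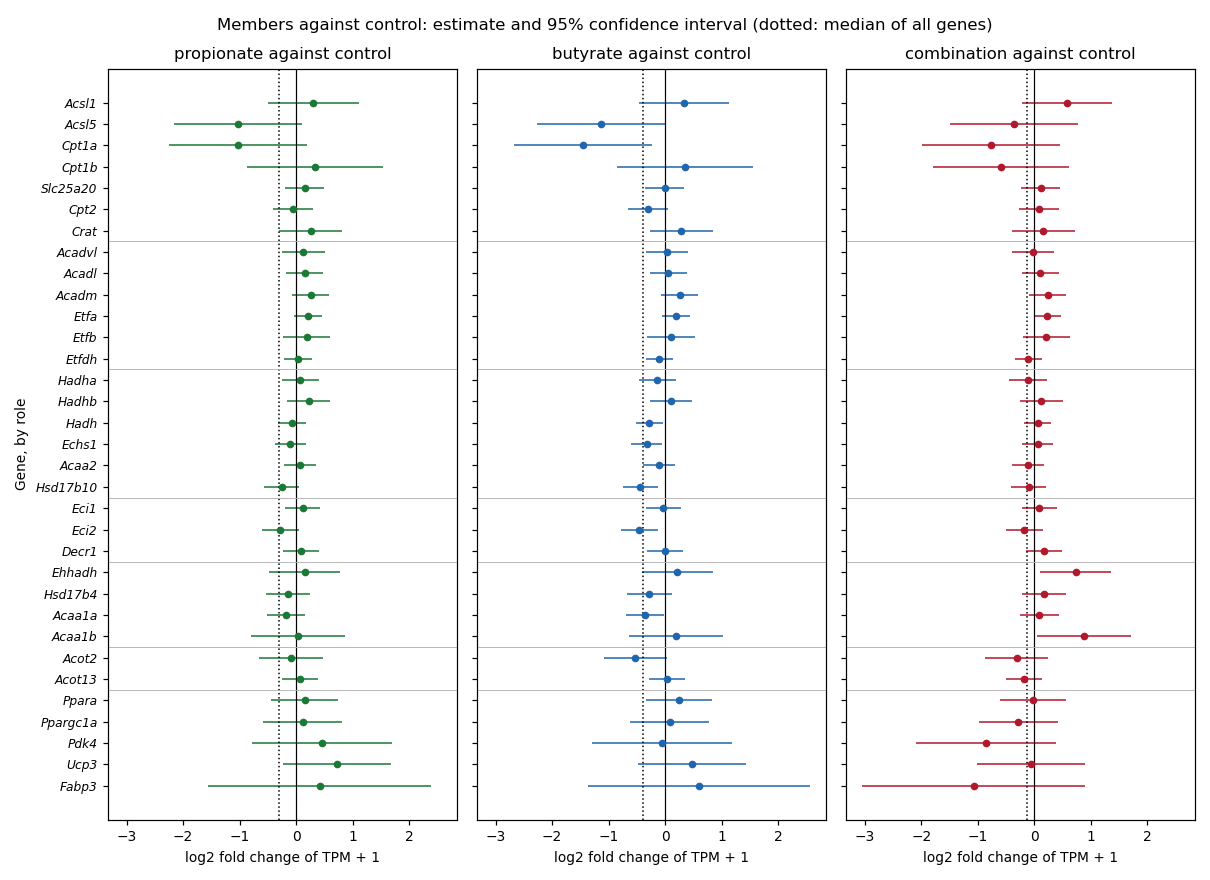
Log2 fold change on the log2(TPM + 1) scale of each of the 33 genes (rows) in the propionate, butyrate and combination groups against control (panels), with 95% confidence intervals as bars and the median of all 15163 genes as a dotted line. Most points lie right of the dotted line, and Cpt1a and Acsl5 lie farthest left with propionate and butyrate.

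The genes lay close to 0 while the bulk of the transcriptome lay below it. With propionate 23 of the 33 were above 0, beside 20.7% of all genes, and the median log2 fold change was 0.12 for the set and -0.30 for all genes. With butyrate 16 were above 0, beside 21.2%, and the medians were -0.01 for the set and -0.38 for all genes. In the combination group 17 were above 0, beside 34.1%, and the medians were 0.06 for the set and -0.12 for all genes. Median-of-ratios scaling, which brings the median of all genes close to 0, gave medians for the set of 0.44, 0.43 and 0.17 for propionate, butyrate and the combination, and quantile normalization gave 0.35, 0.40 and 0.19. Fast muscle genes also lay above control with the single acids: 14 of 15 were above 0 with propionate, with a median of 0.33, and 15 of 15 with butyrate, with a median of 0.50, but 0 of 15 in the combination group, with a median of -1.63. That last direction came from 1 library, since without combination replicate 5 it was 14 of 15, with a median of 0.28. The medians of the set moved with single libraries too. With propionate the median was 0.001 without propionate replicate 2, with 17 of 33 above 0, and in the combination group it was -0.003 without combination replicate 5, with 16 above 0. The part of the muscle genes in the result was not tested beyond a fit with the mean levels of the fast muscle and adipocyte genes as covariates, in which the medians of the set were -0.01, -0.16 and -0.14, and those of all genes -0.18, -0.23 and -0.01.

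With weights estimated per library, calls appeared that the unweighted fit did not make. That fit called 25 of the 33 genes with propionate, beside 75.4% of all genes, 13 with butyrate, beside 67.6%, and 6 in the combination group, beside 38.2%. It gave propionate replicates 3 and 4 weights of 0.127 and 0.181, control replicate 3 a weight of 0.26 and combination replicate 5 a weight of 0.126, against 6.761 for propionate replicate 5. In the unweighted fit, leaving out control replicate 3 gave 6 genes lower with butyrate (Cpt1a, Acsl5, Eci2, Hsd17b10, Echs1 and Acaa1a), beside 37.4% of all genes.

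Entry into mitochondria is set by carnitine palmitoyltransferase 1, which comes as Cpt1a, the form of liver and most other tissues, and Cpt1b, the form of muscle and brown fat. Cpt1a measured 7.10, 11.1 and 69.8 TPM with propionate (lowest, median and highest of 6), 6.47, 12.2 and 31.8 TPM with butyrate, 11.02, 21.5 and 51.9 TPM in the combination group and 9.88, 48.3 and 70.4 TPM in control. The propionate libraries were split, with replicates 3 and 4 at 69.83 and 64.76 TPM and the other 4 between 7.1 and 11.21 TPM, and all groups overlapped. In control, replicate 3 was the lowest, at 9.88 TPM, and the other 5 held between 29.75 and 70.38 TPM. The log2 fold change of Cpt1a was -1.03 ± 0.59 with propionate, -1.46 ± 0.59 with butyrate and -0.77 ± 0.59 in the combination group (SE, adjusted p = 0.333, 0.116 and 0.599 in limma). With the muscle and adipocyte covariates the value for butyrate was -0.74 and that for the combination 0.05, and without control replicate 3 butyrate gave -1.83 with an adjusted p of 0.0297 in limma. Weights per library gave -2.27, -1.94 and -1.35 with propionate, butyrate and the combination (adjusted p = 4.45e-06, 5.55e-05 and 0.0117 in limma), where those weights called 75.4%, 67.6% and 38.2% of all genes. The block by library number gave -1.70 with butyrate (adjusted p = 0.00548 in limma), where 52.1% of all genes passed.

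Markers of mesothelium, the cell layer that lines the abdominal cavity, ran with Cpt1a from library to library. The 7 of them summed to 866 and 651 TPM in propionate replicates 3 and 4 and to between 19.4 and 65.0 TPM in the other 4. In control they summed to 9.97 TPM in replicate 3 and to between 420 and 1059 TPM in the other 5. In each of the 4 groups the library with the highest Cpt1a (propionate 3, butyrate 2, combination 3 and control 2) was also the one with the highest mesothelial sum, at 866, 371, 613 and 1059 TPM. The summed epithelial and ovarian carcinoma markers were 453 and 292 TPM in propionate replicates 3 and 4, against 4.14 to 23.1 TPM in the other 4, and were 2.02 TPM in control replicate 3, against 191 to 539 TPM in the other 5. The split was not particular to these lists. Macrophage markers summed to 1195 and 1197 TPM in propionate replicates 3 and 4, against 309 to 418 TPM in the other 4. They summed to 399.5 TPM in control replicate 3, against 717.5 to 1256 TPM in the other 5. Their highest library was that of Cpt1a in the combination and control groups, but not with propionate or butyrate. Lymphoid markers were also highest in propionate replicates 3 and 4, at 27.1 and 40.6 TPM. All 7 mesothelial markers lay below control in each treated group, with median log2 fold changes of -1.32, -1.63 and -1.88 with propionate, butyrate and the combination, and 0 of them passed. The part of these cells in the values of Cpt1a and Acsl5 was not tested.

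Cpt1b ran against Cpt1a from library to library. It measured 26.3, 79.9 and 134 TPM with propionate, 44.8, 70.3 and 86.0 TPM with butyrate, 2.28, 53.2 and 74.8 TPM in the combination group and 20.5, 52.8 and 116 TPM in control. The library with most Cpt1a was the one with least Cpt1b in the propionate (replicate 3), butyrate (replicate 2) and control (replicate 2) groups, while in the combination group these were replicates 3 and 5. Its log2 fold change was 0.33 ± 0.58 with propionate, 0.36 ± 0.58 with butyrate and -0.59 ± 0.58 in the combination group (SE, adjusted p = 0.715, 0.648 and 0.674 in limma). Without combination replicate 5 the last value was 0.10, and with weights per library 0.19.

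A ratio taken within a library is nearly free of what other genes take of the TPM total. The log2 ratio of Cpt1b to Cpt1a averaged 1.78 ± 2.27 with propionate, 2.24 ± 1.06 with butyrate, 0.61 ± 2.23 in the combination group and 0.43 ± 1.72 in control (SD, n = 6 each). Over all 24 libraries the raw ratio ran between 0.0831 in combination replicate 5 and 13.1 in propionate replicate 5. Cpt1a outran Cpt1b in 2 propionate, 0 butyrate, 2 combination and 3 control libraries. The difference with butyrate, 1.82, had a two-sided exact permutation p of 0.0584, adjusted p = 0.203 over 12 ratio tests. In 28 of 36 pairs the butyrate library had the higher ratio. Those with propionate and the combination, 1.36 and 0.18, had exact p = 0.253 and 0.874. Without control replicate 3 the value for butyrate was 2.42, with an adjusted exact p of 0.039, and without combination replicate 5 that for the combination was 0.92.

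The acyl-CoA synthetases Acsl1 and Acsl5, which activate long-chain fatty acids, were divided in a like manner. Acsl5 measured 5.07, 9.17 and 52.6 TPM with propionate, 6.20, 12.4 and 27.2 TPM with butyrate, 9.96, 26.3 and 39.1 TPM in the combination group and 7.94, 31.7 and 50.2 TPM in control. Acsl1, abundant in fat and muscle, measured 55.6, 87.0 and 165 TPM with propionate, 54.8, 93.0 and 127 TPM with butyrate, 50.5, 90.7 and 375 TPM in the combination group and 47.6, 62.1 and 167 TPM in control. Acsl5 was again high in propionate replicates 3 and 4 and low in control replicate 3, the libraries with high and low mesothelial, epithelial and macrophage sums. Acsl1 was highest in combination replicate 5, the library with most adipocyte RNA. Log2 fold changes of Acsl5 were -1.03 ± 0.55, -1.13 ± 0.55 and -0.35 ± 0.55 with propionate, butyrate and the combination (SE, adjusted p = 0.333, 0.138 and 0.787 in limma). Weights per library gave Acsl5 -2.03 with propionate and -1.57 with butyrate (adjusted p = 5.15e-06 and 0.000153 in limma). Log2 fold changes of Acsl1 were 0.31 ± 0.39, 0.34 ± 0.39 and 0.58 ± 0.39 (adjusted p = 0.601, 0.513 and 0.557 in limma), and the last was 0.22 without combination replicate 5 and -0.34 with the muscle and adipocyte covariates. The log2 ratio of Acsl1 to Acsl5 averaged 2.64 ± 1.81 with propionate, 2.77 ± 1.00 with butyrate, 2.24 ± 1.25 in the combination group and 1.30 ± 1.54 in control (SD, n = 6 each), with exact permutation p = 0.208, 0.0823 and 0.255 and adjusted p = 0.341, 0.203 and 0.341. Without control replicate 3 the difference with butyrate was 2.05, with an adjusted exact p of 0.039.

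**Figure D3:**
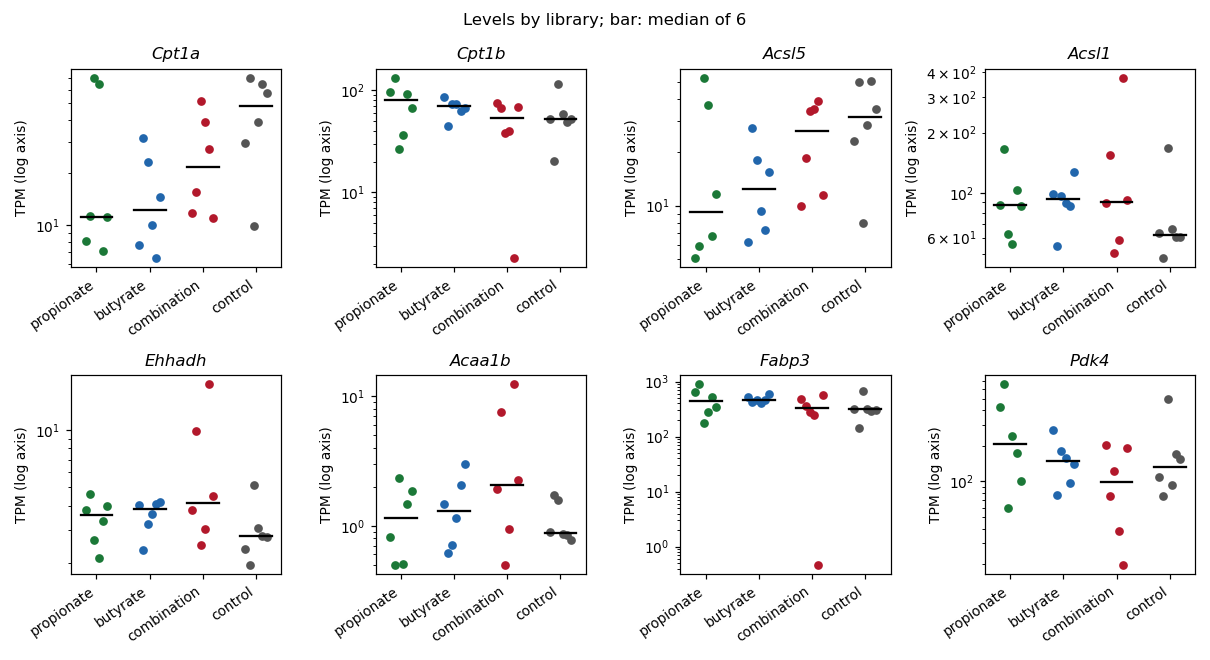
TPM on a log axis of Cpt1a, Cpt1b, Acsl5, Acsl1, Ehhadh, Acaa1b, Fabp3 and Pdk4 (panels) in each library of the propionate, butyrate, combination and control groups, with points for libraries and a bar at the median of 6. Cpt1a and Acsl5 fall into high and low libraries within the propionate and control groups, and combination replicate 5 is the lowest point for Cpt1b, Fabp3 and Pdk4.

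The rest of the carnitine shuttle was steadier. Slc25a20, the carnitine-acylcarnitine carrier of the inner membrane, averaged 48.3 ± 13.0 TPM with propionate, 42.1 ± 5.04 with butyrate, 46.4 ± 8.70 in the combination group and 43.0 ± 10.1 in control (SD, n = 6 each). Cpt2, which restores the acyl-CoA inside, averaged 24.7 ± 3.87, 20.6 ± 2.61, 28.5 ± 10.2 and 25.7 ± 3.71 TPM in the same groups. With butyrate, Cpt2 was higher than control in only 3 of 36 pairs of libraries, at a log2 fold change of -0.30 ± 0.17 (SE, adjusted p = 0.186 in limma). Crat, which makes short-chain acylcarnitines, averaged 105 ± 48.7, 98.0 ± 12.5, 90.9 ± 20.3 and 84.3 ± 31.9 TPM with propionate, butyrate, the combination and control. It was among the 3 genes of the set with smallest p above control with butyrate, at 0.29 ± 0.27 (SE, adjusted p = 0.423 in limma).

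Because the nuclear receptors that regulate this pathway bind the element AGGTCA, the promoter windows of the set were read for it in RefSeq, on build GRCm38.p6, from 250 bases before to 50 after the gene start. The deposited table was made on mm39, so these coordinates are RefSeq's own. Windows were found for 27 of the 33 genes. Cpt1b, Acaa2, Decr1, Acot13, Crat and Hsd17b4 had no matching entry. AGGTCA, on either strand, was present in 5 of the 27 (Acadm, Ucp3, Echs1, Acadvl and Cpt1a), or 18.5%, beside 16.3% of all 32851 windows. The longer TCAAGGTCA of estrogen-related receptors was in 0 of the 27, beside 0.423% of all windows, and the direct repeat of AGGTCA with 1 base between (DR1) in 0 of the 27, beside 0.0396%. Both longer elements contain AGGTCA. A match is a description of the letters only. The windows of Cpt1a, at chr19:3323051-3323350 on the plus strand, and of Acadm, at chr3:153944594-153944893 on the minus strand, are given since Cpt1a had the lowest fold change of the set with each single acid and Acadm was among the 3 genes of smallest p above control there, with the element in capitals as its reverse complement TGACCT.
Cpt1a: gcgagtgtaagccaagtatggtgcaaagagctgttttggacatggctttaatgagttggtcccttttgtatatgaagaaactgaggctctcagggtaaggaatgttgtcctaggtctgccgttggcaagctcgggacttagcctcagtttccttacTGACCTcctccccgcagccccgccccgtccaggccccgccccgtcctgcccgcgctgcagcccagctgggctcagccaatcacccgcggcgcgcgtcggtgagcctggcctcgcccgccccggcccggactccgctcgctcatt
Acadm: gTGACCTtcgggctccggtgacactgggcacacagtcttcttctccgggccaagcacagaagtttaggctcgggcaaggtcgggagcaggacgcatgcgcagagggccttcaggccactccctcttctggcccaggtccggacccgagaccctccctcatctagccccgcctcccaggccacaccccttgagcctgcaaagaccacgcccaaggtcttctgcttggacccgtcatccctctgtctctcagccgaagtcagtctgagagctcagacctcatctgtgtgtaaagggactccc

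Acyl-CoA dehydrogenases open the spiral, and the electron transfer flavoprotein takes up their electrons. All 6 genes of this step lay above control with propionate, with a median log2 fold change of 0.17, as did 5 of 6 with butyrate (median 0.08) and 4 of 6 in the combination group (median 0.16), and 0 passed. Without propionate replicate 2 the count with propionate was 4 of 6, with a median of 0.05. Acadm, the medium-chain dehydrogenase, measured 115, 163 and 215 TPM with propionate, 133, 152 and 184 TPM with butyrate, 121, 164 and 179 TPM in the combination group and 105, 124 and 181 TPM in control. The highest control value was again replicate 3, and the groups overlapped. Its log2 fold change was 0.26 ± 0.16 with propionate, 0.26 ± 0.16 with butyrate and 0.24 ± 0.16 in the combination group (SE, adjusted p = 0.334, 0.218 and 0.557 in limma), higher in 25, 30 and 27 of 36 pairs of libraries. Etfa, the α subunit of the flavoprotein, measured 133, 158 and 169 TPM with propionate, 125, 156 and 167 TPM with butyrate, 131, 161 and 169 TPM in the combination group and 105, 127 and 175 TPM in control. It was the gene of smallest p above control with both single acids, at 0.21 ± 0.12 with propionate and 0.19 ± 0.12 with butyrate, and lay at 0.23 ± 0.12 in the combination group (SE, adjusted p = 0.333, 0.212 and 0.495 in limma). Its partner Etfb averaged 340 ± 100.6, 313 ± 51.6, 343 ± 81.4 and 293 ± 62.3 TPM, and Etfdh, which passes the electrons to ubiquinone, 57.7 ± 11.6, 51.8 ± 4.33, 51.7 ± 3.28 and 56.0 ± 7.92 TPM with propionate, butyrate, the combination and control (SD, n = 6 each).

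Acadvl and Acadl, the very-long-chain and long-chain dehydrogenases, were present in nearly equal amounts in every library. The TPM of Acadl divided by that of Acadvl ran between 0.968 and 1.28 over the 24 libraries, although Acadl alone ran between 101.5 and 199 TPM. The log2 ratio averaged 0.09 ± 0.12 with propionate, 0.08 ± 0.07 with butyrate, 0.19 ± 0.11 in the combination group and 0.06 ± 0.12 in control (SD, n = 6 each). The differences from control were 0.03, 0.02 and 0.13, with exact permutation p = 0.816, 0.814 and 0.0844 and adjusted p = 0.874, 0.874 and 0.203. The first of these was -0.005 without propionate replicate 4. Log2 fold changes of Acadvl itself were 0.13 ± 0.18, 0.04 ± 0.18 and -0.02 ± 0.18, and those of Acadl 0.16 ± 0.16, 0.05 ± 0.16 and 0.11 ± 0.16 (SE). Each had an adjusted p of 0.513 or more in limma, and the value of Acadvl in the combination group was 0.080 after median-of-ratios scaling and 0.10 after quantile normalization.

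Hadha and Hadhb encode the α and β subunits of the mitochondrial trifunctional protein, which carries out the last 3 steps of the spiral on long chains. Hadha measured 90.8, 117 and 202 TPM with propionate, 84.6, 106 and 125 TPM with butyrate, 88.5, 105 and 129 TPM in the combination group and 99.0, 111 and 142 TPM in control. Hadhb measured 143, 192 and 314 TPM with propionate, 153, 178 and 222 TPM with butyrate, 144, 188 and 230 TPM in the combination group and 135, 158 and 255 TPM in control. Hadhb was the more abundant subunit in all 24 libraries, with a raw ratio between 1.255 and 2.03. The log2 ratio of Hadhb to Hadha averaged 0.69 ± 0.15 with propionate, 0.78 ± 0.18 with butyrate, 0.78 ± 0.11 in the combination group and 0.54 ± 0.18 in control (SD, n = 6 each). The differences from control were 0.14, 0.24 and 0.24, with two-sided exact permutation p = 0.156, 0.0455 and 0.026 and adjusted p = 0.312, 0.203 and 0.203 over the 12 ratio tests, and the ratio was higher in 27, 30 and 31 of 36 pairs of libraries. Without control replicate 3, the control library with the highest ratio, the differences with butyrate and the combination were 0.30 and 0.29, each with an adjusted exact p of 0.039. No cause of the ratio was tested.

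The genes of these subunits lie head to head on chromosome 5. Their RefSeq promoter windows overlap on opposite strands over 228 bases, between 30155003 and 30155230 on GRCm38.p6. The window of Hadha is chr5:30154931-30155230 on the minus strand and that of Hadhb chr5:30155003-30155302 on the plus strand. They are given since this pair of genes with a shared start region had the smallest exact p among the ratios, and the overlap is in capitals, so that the capitals of either are the reverse complement of the other.
Hadha: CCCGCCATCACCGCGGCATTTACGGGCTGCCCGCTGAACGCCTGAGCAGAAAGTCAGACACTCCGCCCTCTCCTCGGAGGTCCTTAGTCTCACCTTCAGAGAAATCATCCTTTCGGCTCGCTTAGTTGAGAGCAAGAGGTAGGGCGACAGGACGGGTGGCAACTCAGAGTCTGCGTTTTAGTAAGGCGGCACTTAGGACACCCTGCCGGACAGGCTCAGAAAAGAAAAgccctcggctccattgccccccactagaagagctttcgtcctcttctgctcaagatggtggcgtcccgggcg
Hadhb: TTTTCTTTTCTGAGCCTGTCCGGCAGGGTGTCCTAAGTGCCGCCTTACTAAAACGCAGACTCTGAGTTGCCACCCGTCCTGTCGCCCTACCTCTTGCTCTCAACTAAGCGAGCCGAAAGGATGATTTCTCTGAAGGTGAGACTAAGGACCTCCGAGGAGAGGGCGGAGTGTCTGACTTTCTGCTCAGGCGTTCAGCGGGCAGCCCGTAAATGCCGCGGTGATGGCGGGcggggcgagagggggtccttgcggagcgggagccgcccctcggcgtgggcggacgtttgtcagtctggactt

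**Figure D4:**
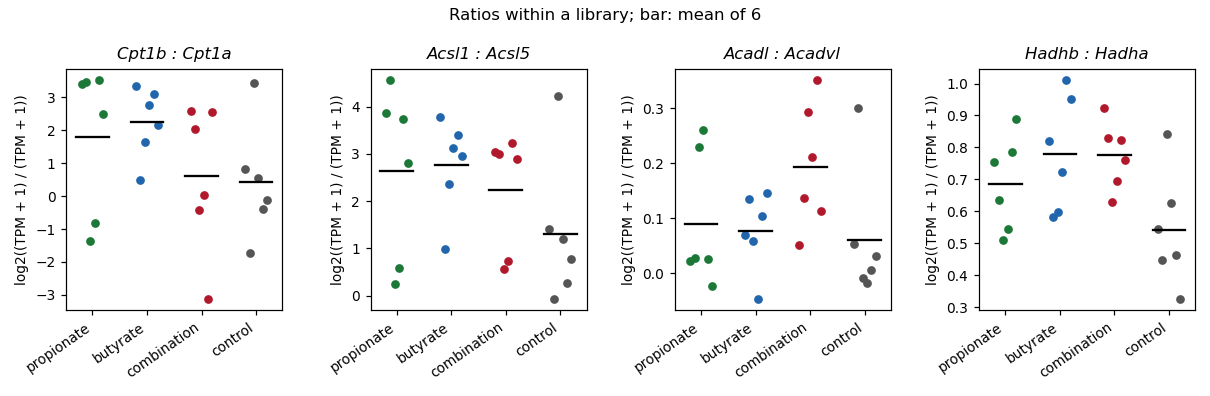
Log2 ratio of Cpt1b to Cpt1a, Acsl1 to Acsl5, Acadl to Acadvl and Hadhb to Hadha (panels), computed from TPM + 1 within each library, in the propionate, butyrate, combination and control groups, with points for libraries and a bar at the mean of 6. The Cpt1 and Acsl ratios spread over several log2 units within groups, while the Acadl to Acadvl ratio stays between -0.05 and 0.35.

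The other matrix enzymes had their lowest medians with butyrate. Hsd17b10, a hydroxyacyl-CoA dehydrogenase that also serves isoleucine breakdown and mitochondrial tRNA processing, measured 71.1, 75.0 and 90.9 TPM with butyrate and 79.7, 106 and 132 TPM in control. This was -0.44 ± 0.15 on the log2 scale (SE, adjusted p = 0.115 in limma), higher in 2 of 36 pairs, but 0.005 after median-of-ratios scaling. Hadh, the hydroxyacyl-CoA dehydrogenase for shorter chains, measured 75.1, 78.6 and 82.9 TPM with butyrate and 80.7, 95.7 and 112 TPM in control, at -0.28 ± 0.12 with 1 of 36 pairs higher (SE, adjusted p = 0.117 in limma). Echs1, the short-chain enoyl-CoA hydratase, measured 79.8, 92.2 and 102 TPM with butyrate and 98.4, 118 and 138 TPM in control, at -0.32 ± 0.13 (SE, adjusted p = 0.116 in limma). For these 3 genes the ranges of the groups overlapped at their ends. Acaa2, the mitochondrial thiolase, averaged 121 ± 31.0, 105 ± 9.21, 106 ± 12.5 and 113 ± 14.1 TPM with propionate, butyrate, the combination and control (SD, n = 6 each). These values stand beside a median of -0.38 for all genes with butyrate.

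Enzymes that prepare unsaturated fatty acids for the spiral were Eci1, Eci2 and Decr1. Eci2, a Δ3,Δ2-enoyl-CoA isomerase, measured 50.6, 60.2 and 85.0 TPM with propionate, 46.0, 56.1 and 69.3 TPM with butyrate, 57.0, 66.4 and 84.3 TPM in the combination group and 59.5, 77.3 and 98.5 TPM in control. The control group was the highest at the median, and all groups overlapped. Its log2 fold change was -0.28 ± 0.16 with propionate, which turned to 0.082 after median-of-ratios scaling and was 0.0004 after quantile normalization, and -0.46 ± 0.16 with butyrate (SE, adjusted p = 0.333 and 0.115 in limma). In the combination group it was -0.18 ± 0.16. Eci1 averaged 86.9 ± 18.3, 77.6 ± 12.6, 84.6 ± 11.1 and 79.7 ± 15.6 TPM, and the reductase gene Decr1 41.6 ± 7.97, 38.7 ± 4.43, 45.0 ± 12.3 and 38.9 ± 5.37 TPM with propionate, butyrate, the combination and control (SD, n = 6 each).

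The peroxisomal genes lay above control in the combination group, in part through 1 library. All 4 were above control, with a median log2 fold change of 0.46, and without combination replicate 5 this was 2 of 4, with a median of 0.22, Hsd17b4 at -0.003 and Acaa1a at -0.05. In the full group 2 of them, Ehhadh and Acaa1b, were the only genes of the set above control at an unadjusted p under 0.05. Ehhadh, the peroxisomal bifunctional enzyme, measured 2.48, 4.16 and 17.4 TPM in the combination group and 1.96, 2.77 and 5.12 TPM in control. Acaa1b, a peroxisomal thiolase, measured 0.50, 2.08 and 12.3 TPM in the combination group and 0.77, 0.88 and 1.73 TPM in control. Combination replicates 5 and 2 were the highest for both, at 17.35 and 9.92 TPM of Ehhadh and 12.33 and 7.54 TPM of Acaa1b, and the groups overlapped. These were also the combination libraries with most adipocyte RNA, at 11780 and 3568 TPM, against 634.7 to 2118 TPM in the other 4. Log2 fold changes were 0.73 ± 0.30 for Ehhadh and 0.88 ± 0.40 for Acaa1b (SE, adjusted p = 0.402 and 0.467 in limma), each higher in 28 of 36 pairs. Without combination replicate 5 they were 0.43 and 0.52, and with the muscle and adipocyte covariates -0.01 and -0.17. Weights per library, with 0.126 for combination replicate 5, gave 0.87 and 1.19 (adjusted p = 0.00685 and 0.00927 in limma). Those weights called 38.2% of all genes in this comparison. All 9 tested adipocyte markers were above control in this comparison, with a median of 1.44, or 0.89 without combination replicate 5.

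With the single acids the peroxisomal genes did not share a direction. Ehhadh measured 2.13, 3.57 and 4.60 TPM with propionate and 2.34, 3.83 and 4.18 TPM with butyrate, and Acaa1b 0.50, 1.15 and 2.33 TPM with propionate and 0.62, 1.31 and 3.01 TPM with butyrate. Hsd17b4, the D-specific bifunctional enzyme, averaged 38.3 ± 8.73, 34.3 ± 4.87, 50.1 ± 21.2 and 41.7 ± 4.25 TPM with propionate, butyrate, the combination and control (SD, n = 6 each). Acaa1a, the other peroxisomal thiolase, averaged 37.0 ± 7.30, 32.3 ± 3.52, 45.8 ± 14.6 and 41.9 ± 6.72 TPM and was at -0.36 ± 0.17 with butyrate (SE, adjusted p = 0.129 in limma). Acaa1a and Acaa1b are close paralogues, so reads shared between them make their split uncertain, and the same holds for Acot2 and its neighbour Acot1.

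Thioesterases release free fatty acids from their CoA esters. Acot2, the mitochondrial form, measured 4.94, 7.39 and 16.1 TPM with propionate, 3.93, 4.89 and 8.85 TPM with butyrate, 4.21, 6.95 and 9.45 TPM in the combination group and 5.87, 7.73 and 15.8 TPM in control. Its log2 fold change was -0.09 ± 0.27, -0.53 ± 0.27 and -0.31 ± 0.27 with propionate, butyrate and the combination (SE, adjusted p = 0.834, 0.155 and 0.639 in limma). Acot13 averaged 110 ± 7.82, 108 ± 9.54, 96.7 ± 24.0 and 106 ± 13.1 TPM with propionate, butyrate, the combination and control (SD, n = 6 each), and its spread in the combination group came from replicate 5, at 49.75 TPM.

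The genes that respond to fatty acids or carry them in muscle included the pair with the largest residual SD of log2(TPM + 1) within groups, Fabp3 at 1.739 and Pdk4 at 1.088. The rank of Fabp3 came from combination replicate 5. Leaving it out, Fabp3 was at 0.621, and Cpt1a was the largest at 1.097. All 5 of Ppara, Ppargc1a, Pdk4, Ucp3 and Fabp3 were above control with propionate (median 0.42) and 4 of 5 with butyrate (median 0.25), and all 5 were below it in the combination group (median -0.28), with 0 passing. These counts rested on single libraries. Without combination replicate 5 the last was 3 of 5 below (median -0.05), with Fabp3 at 0.26 and Ucp3 at 0.03, and without control replicate 3 it was 2 of 5 below (median 0.03). Without propionate replicate 2, 3 of 5 were above control with propionate (median 0.13). Pdk4, a kinase that shuts off pyruvate dehydrogenase when fat is burned, measured 59.1, 209 and 657 TPM with propionate, 76.3, 149 and 272 TPM with butyrate, 19.8, 98.7 and 202 TPM in the combination group and 74.8, 132 and 499 TPM in control. Its log2 fold change in the combination group was -0.85 ± 0.60 (SE, adjusted p = 0.571 in limma) and -0.46 without combination replicate 5. Ucp3, the uncoupling protein of skeletal muscle, measured 11.1, 33.0 and 81.6 TPM with propionate, 15.9, 27.3 and 41.1 TPM with butyrate, 7.52, 17.2 and 36.5 TPM in the combination group and 8.95, 15.2 and 78.2 TPM in control. It was at 0.72 ± 0.46 with propionate (SE, adjusted p = 0.338 in limma), with control replicate 3 at 78.2 TPM as the highest control value. This was 0.46 without propionate replicate 2 and 1.11 without control replicate 3.

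Fabp3 was lowest in the library with least and highest in the library with most fast muscle RNA. It measured 178, 438 and 883 TPM with propionate, 405, 453 and 590 TPM with butyrate, 0.47, 325 and 580 TPM in the combination group and 145, 311 and 683 TPM in control. Its log2 fold changes, 0.42 ± 0.95, 0.60 ± 0.95 and -1.07 ± 0.95 with propionate, butyrate and the combination, had the largest errors of the set (SE, adjusted p = 0.782, 0.643 and 0.642 in limma). The last turned to 0.26 without combination replicate 5, since the other 5 combination libraries held between 242 and 580 TPM. Ppara measured 0.71, 2.23 and 5.71 TPM with propionate, 1.67, 2.46 and 3.58 TPM with butyrate, 0.89, 2.00 and 3.09 TPM in the combination group and 1.08, 1.72 and 3.51 TPM in control. Ppargc1a, which encodes PGC-1α, averaged 5.11 ± 2.53, 4.79 ± 1.93, 3.47 ± 1.11 and 5.24 ± 4.66 TPM with propionate, butyrate, the combination and control (SD, n = 6 each), and 14.37 TPM in control replicate 3 was its highest value.

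How much of the spread within groups went along with muscle and fat was read from the residuals. The residual SD of log2(TPM + 1) within groups had a median of 0.307 over the 33 genes and 0.467 over all genes. With the mean levels of the fast muscle and adipocyte genes in the model it was 0.245 for the set and 0.337 for all genes. Leaving out combination replicate 5, the medians without these terms were 0.288 and 0.431, and with them 0.182 and 0.266. Cpt1b went down to 0.351 with the terms, against 1.058 without them, and Fabp3 to 0.316, against 1.739. Much of that fall came from combination replicate 5. Leaving it out, Cpt1b was at 0.228 with the terms, against 0.662 without them, and Fabp3 at 0.325, against 0.621. Acot2, at 0.478 with the terms and 0.477 without, did not follow these tissues.

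Setting the combination group against each acid alone, 0 of 33 genes passed in limma (0% of all genes in both comparisons). Against propionate, at an unadjusted p under 0.05, 1 gene was higher and 1 lower, beside 8.43% and 0.429% of all genes. Above 0 were 15 of the 33, beside 76.9%, and in 0 did the groups not overlap, beside 0.145%. The 2 genes were Acaa1b at 0.84 ± 0.40 and Pdk4 at -1.32 ± 0.60 (SE, adjusted p = 0.564 and 0.55 in limma). Against butyrate, 6 were higher at an unadjusted p under 0.05 and 0 lower, beside 14.6% and 0.93% of all genes, namely Hadh, Echs1, Acaa1a, Hsd17b4, Cpt2 and Hsd17b10. Hadh was the 1 gene of the set whose libraries did not overlap, beside 0.739% of all genes, with 85.6, 92.6 and 141 TPM in the combination group and 75.1, 78.6 and 82.9 TPM with butyrate, a log2 difference of 0.34 ± 0.12 (SE, adjusted p = 0.317 in limma). In this comparison 22 of the 33 were above 0, beside 81.6%. Butyrate against propionate gave 7 of the 33 above 0, beside 29.7%, 0 whose groups did not overlap, beside 0.0725%, and 0 genes at an unadjusted p under 0.05 in either direction, beside 0.165% higher and 0.541% lower of all genes. The interaction, which asks whether the difference of combination and propionate equals that of butyrate and control, gave 7 genes above 0 and 0 below at an unadjusted p under 0.05, beside 34.8% and 0.95%, and 0 with adjustment, where 0% of all genes passed. Above 0 in any degree were 14 of the 33, beside 83.7%. The largest of the 7 was Acsl5 at 1.80 ± 0.77 (SE, adjusted p = 0.128 in limma). Without propionate replicate 3, 7 genes passed for the interaction (Acaa1a, Acsl5, Cpt1a, Echs1, Eci2, Hadh and Hsd17b10), beside 37.4% of all genes. Weights per library called 6, 3 and 16 genes of the set for the combination against propionate, the combination against butyrate and the interaction, beside 33.1%, 3.77% and 72.4% of all genes. A block by library number called 10 for butyrate against control and 5 for the interaction, beside 52.1% and 35.8%. These comparisons share samples with those against control.

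Other genes of fatty acid oxidation, outside the 33, gave 31 tested of 34 listed and 0 passing against control. At an unadjusted p under 0.05, 0 were higher and 2 lower with propionate, beside 0.435% and 9.13% of all genes. With butyrate 1 was higher and 10 lower, beside 1.19% and 35.1%, and in the combination group 5 and 1, beside 6.2% and 4.1%, or 2 and 1 without combination replicate 5, beside 4.2% and 4.52%. The share lower was thus near that of all genes with both single acids. For propionate, butyrate and the combination the list had median log2 fold changes of -0.05, -0.24 and -0.03. Acot1, the cytosolic thioesterase that is a known PPARα target, measured 1.45, 5.32 and 19.7 TPM with butyrate and 11.8, 38.8 and 59.1 TPM in control, or -2.44 ± 0.76 on the log2 scale (SE, adjusted p = 0.115 in limma), and 1 of 36 pairs was higher. In the combination group it was at -1.71 ± 0.76 (SE, adjusted p = 0.448 in limma). Nudt19, a CoA diphosphatase, was at -0.47 ± 0.17 with butyrate and -0.32 ± 0.17 in the combination group. Abcd2, a peroxisomal transporter of fatty acyl-CoA, measured 8.24, 18.4 and 83.6 TPM in the combination group and 4.86, 7.39 and 12.2 TPM in control. It was at 1.34 ± 0.41 there, 0.90 ± 0.41 with butyrate and 0.62 ± 0.41 with propionate (SE, adjusted p = 0.265, 0.125 and 0.345 in limma). Scp2, the peroxisomal thiolase and sterol carrier gene, was higher in 36 of 36 pairs in the combination group, at 170, 193 and 521 TPM against 120, 159 and 166 TPM in control, or 0.61 ± 0.21 on the log2 scale (SE, adjusted p = 0.304 in limma). Combination and control libraries did not overlap for 0.745% of all genes. Without combination replicate 5 Abcd2 was at 0.95 and Scp2 at 0.38. Among the other genes of smallest p, Acad11 was at 0.31 ± 0.17, Acot8 at -0.46 ± 0.19 and Acot9 at -0.35 ± 0.15 with propionate, the last at 0.0088 after median-of-ratios scaling, and Hacl1 at 0.43 ± 0.24 with butyrate.

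Genes that supply fatty acids gave 16 tested of 21 listed, and 0 passed against control. In the combination group 13 of 16 were above control, with a median of 0.69, and 9 had an unadjusted p under 0.05, beside 6.2% of all genes. With propionate and butyrate 0 were higher at that p, beside 0.435% and 1.19% of all genes. Without combination replicate 5 there were 12 of 16 above control (median 0.46) and 7 at that p, beside 4.2%. With all libraries, 0, 2 and 0 were lower at that p with propionate, butyrate and the combination, beside 9.13%, 35.1% and 4.1%. Cd36, the fatty acid translocase, measured 141, 277 and 757 TPM in the combination group and 83.8, 114 and 246 TPM in control, at 1.16 ± 0.33 (SE, adjusted p = 0.24 in limma). Fabp4, the fatty acid binding protein of adipocytes and macrophages, measured 461, 1229 and 7135 TPM in the combination group and 225, 528 and 762 TPM in control, at 1.69 ± 0.51 (SE, adjusted p = 0.265 in limma). Replicate 5 was the highest for both, and without it they were at 0.89 and 1.25. Below control with butyrate were the fatty acid transport protein gene Slc27a4 at -0.76 ± 0.27 and Plin2, a coat protein of lipid droplets, at -0.76 ± 0.30. Plin2 was higher in 0 of 36 pairs, with 40.2, 56.2 and 59.2 TPM with butyrate and 69.1, 94.1 and 113 TPM in control (adjusted p = 0.115 for both in limma). Butyrate and control libraries did not overlap for 1.89% of all genes. With propionate Slc27a4 and Plin2 were at -0.52 ± 0.27 and -0.53 ± 0.30, Cd36 at 0.41 ± 0.33 and Mgll at 0.36 ± 0.39. Pnpla3 was at 0.75 ± 0.57 and Cd36 at 0.50 ± 0.33 with butyrate, and Slc27a4 at -0.17 ± 0.27 and Slc27a3 at -0.07 ± 0.19 in the combination group, where Slc27a3 turned to 0.0096 after median-of-ratios scaling and 0.025 after quantile normalization.

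Regulators and PPAR target genes outside the 33 numbered 20 tested of 25 listed, with 0 passing against control. At an unadjusted p under 0.05, 8 were lower and 0 higher with butyrate, beside 35.1% and 1.19% of all genes, 2 lower and 0 higher with propionate, beside 9.13% and 0.435%, and 0 lower and 1 higher in the combination group, beside 4.1% and 6.2%. The 8 with butyrate became 3 to 9 when 1 library was left out. Rxrb, the retinoid X receptor that pairs with PPARs, measured 14.7, 15.7 and 17.7 TPM with butyrate and 19.3, 24.1 and 26.2 TPM in control. It was higher in 0 of 36 pairs, beside 1.89% of all genes whose libraries did not overlap. It was at -0.51 ± 0.13 with butyrate and -0.28 ± 0.13 with propionate (SE, adjusted p = 0.115 and 0.333 in limma), but at -0.08 and 0.067 after median-of-ratios scaling, and at -0.02 and 0.079 after quantile normalization. Ppard was at -0.54 ± 0.17 with butyrate, -0.32 ± 0.17 in the combination group and -0.38 ± 0.17 with propionate, the last at 0.0077 after quantile normalization. Pparg, the PPAR of adipocytes, measured 7.07, 15.4 and 105 TPM in the combination group and 3.74, 7.995 and 10.96 TPM in control, at 1.47 ± 0.46 (SE, adjusted p = 0.269 in limma) and at 1.01 without replicate 5. Angptl4, an inhibitor of lipoprotein lipase, was at 0.60 ± 0.44 and the mitochondrial deacetylase gene Sirt3 at -0.26 ± 0.13 in the combination group. The kinase genes Pdk2 and Prkaa2 were at 0.38 ± 0.36 and 0.44 ± 0.48 with propionate, and Prkaa2 and the receptor gene Esrrg at 0.71 ± 0.48 and 0.41 ± 0.33 with butyrate.

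The 17 genes of the tricarboxylic acid cycle, which takes up the acetyl-CoA, were set beside the 33 as another mitochondrial pathway. With propionate 15 of 17 were above control, with a median log2 fold change of 0.11 against 0.12 for the oxidation genes, with butyrate 10 of 17, with a median of 0.05 against -0.01, and in the combination group 8 of 17, with a median of 0.00 against 0.06. In each comparison 0 passed. The 13 tested mitochondrially encoded genes were all above control with propionate (median 0.25) and butyrate (median 0.42), and 9 of 13 in the combination group (median 0.03). At an unadjusted p under 0.05, 1, 10 and 0 of them were higher in these groups, beside 0.435%, 1.19% and 6.2% of all genes. In each group 0 were lower, beside 9.13%, 35.1% and 4.1%, and 0 passed with adjustment. They held on average 19.8% of the TPM with propionate, 22.9% with butyrate, 16.9% in the combination group and 16.4% in control. No test of a difference between these lists was made.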

How the data were processed

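RNA was sequenced from 24 samples as stranded libraries of polyadenylated RNA, per the labels' protocols. The submitters' processing notes name fastp, HISAT2, StringTie and the build mm39. Tool versions, settings and gene annotation were not given in the sources used here.

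Deposited by the authors was 1 table of TPM with 149132 transcript rows, of which 1001 had no gene name and were left out (0.174 to 0.470% of the TPM of a library). Rows were summed by gene name. Columns summed to between 999999 and 1000001.

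Values were analysed as log2(TPM + 1), so fold changes understate those of low genes. All 24 libraries entered 1 linear model in limma 3.58.1 (trend and robust moderation, R 4.3.3) over genes that reached a TPM of 1 in 6 or more libraries. P-values are two-sided and adjusted by Benjamini-Hochberg over 15163 genes, with a threshold of 0.05. Ratios were compared by two-sided exact permutation tests over 924 arrangements, which cannot go below 0.00216, adjusted over 12 tests. The model was tested on simulated data. No columns were identical.

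The genes and lists were chosen with earlier results of these data known. Full statistics are given for the 3 genes of the set with smallest p in each direction against control and for the members of the ratios. In each other pathway list the 2 genes of smallest p in each direction are named. Genes outside this rule whose values are given were chosen after they were seen. Alternatives were other pseudocounts, filters, scalings, moderation, samples and covariates, library weights, replicate blocks and leaving out each library.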

Additional observations from a re-analysis of the deposited data

Results flagged for a closer look

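In 14 of 148 groups of 6 libraries screened, the highest or lowest library lay apart by a gap to its neighbour, as a share of the group's range on the log2 scale, that was above Dixon's 95% limit. Chance gives about 1 in 20 for a single group. The screened genes and ratios share the same 24 libraries, so the flags are not independent and that rate cannot judge their count. Control replicate 3 accounted for 7 of them. It was the highest control library for Acsl1 (gap 0.736 of the range, at 167 TPM), Acadl (0.626, 165 TPM), Acaa2 (0.689, 141 TPM), Eci1 (0.738, 111 TPM), Decr1 (0.824, 49.8 TPM) and Ucp3 (0.634, 78.2 TPM), and for the log2 ratio of Acsl1 to Acsl5 (0.654, at 4.23).

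Combination replicate 5 accounted for 4. It was the lowest combination library for Cpt1b (0.79, at 2.28 TPM), Acot13 (0.764, 49.75 TPM), Ppargc1a (0.63, 1.51 TPM) and Fabp3 (0.854, 0.47 TPM).

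The other 3 were Crat, lowest in butyrate replicate 2 (0.664, at 74.3 TPM), Etfdh, highest in propionate replicate 2 (0.64, 80.4 TPM), and the log2 ratio of Acadl to Acadvl, highest for control in replicate 2 (0.776, at 0.30).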

How the results depend on the processing

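The count of 0 genes of the set passing was the same in all 7 comparisons with a pseudocount of 0.1, no filter, a filter of TPM at least 5, both scalings, plain moderation, only the compared groups, the muscle and adipocyte covariates, a replicate block by the title number and without combination replicate 5. Weights per library gave 25, 13, 6, 6, 3 and 16 for propionate, butyrate and combination against control, combination against propionate and against butyrate, and the interaction. A replicate block by the library number gave 10 for butyrate and 5 for the interaction. Leaving out 1 library gave 0 to 6 for butyrate (6 without control replicate 3) and 0 to 7 for the interaction (7 without propionate replicate 3). Of single-gene results, 54 newly passed with weights, 12 with the library-number block and 10 without control replicate 3. The labels do not say that title numbers pair the samples, and correlated deviations cannot settle whether samples shared an animal or a batch. For the title numbers, 16 of 36 same-number pairs had correlated deviations over 0.1 (between -0.865 and 0.737). In 12 of 72 cases a library correlated best with its own number. For the library numbers these were 18 of 27 pairs and 11 of 54 cases.

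Without control replicate 3 the ratio differences of Cpt1b to Cpt1a, Acsl1 to Acsl5 and Hadhb to Hadha with butyrate, and of Hadhb to Hadha in the combination group, passed at an adjusted exact permutation p of 0.039. Leaving out 1 library gave ranges of 1.38 to 2.42, 1.19 to 2.05, 0.19 to 0.30 and 0.19 to 0.29 for these 4. It gave -0.0049 to 0.077 for Acadl to Acadvl with propionate and -0.25 to 0.92 for Cpt1b to Cpt1a in the combination group.

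For the genes of smallest p and the members of the ratios, directions turned as follows, with 0 of these values passing. With median-of-ratios scaling, propionate gave Eci2 0.082, Acot9 0.0088 and Rxrb 0.067, butyrate gave Hsd17b10 0.005 and Hadha 0.31, and the combination gave Slc27a3 0.0096 and Acadvl 0.080. With quantile normalization, propionate gave Eci2 0.0004, Rxrb 0.079 and Ppard 0.0077, butyrate gave Hadha 0.24, and the combination gave Slc27a3 0.025, Acadvl 0.10 and Hadha 0.016. With the covariates, butyrate gave Cpt1b -0.046, Acadl -0.068, Acadvl -0.13, Acsl1 -0.032 and Hadhb -0.060. The combination gave there Ehhadh -0.013, Acaa1b -0.17, Cpt1a 0.054, Slc27a3 0.17, Acadl -0.12, Acsl1 -0.34, Acsl5 0.12 and Hadhb -0.14. Weights gave Cpt1b 0.19 and Acadvl 0.073 in the combination group, and the library-number block Acadvl 0.062. Without single libraries the ranges of these genes included 0 for Acadvl (-0.0034 to 0.24) and Hadha (-0.069 to 0.16) with propionate. They also did so for Acadvl with butyrate (-0.055 to 0.15), and for Cpt1b (-0.85 to 0.098) and Acadvl (-0.11 to 0.086) in the combination group. Other genes of the set had ranges that included 0 as well, not all of them given here. Among them were Fabp3 (-1.47 to 0.26) and Ucp3 (-0.26 to 0.34) in the combination group and Acaa2 (-0.046 to 0.13) with propionate. The cause was not tested. Depth is unknown in TPM.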
